A study of Mus musculus with 8 samples.

Results

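The genes that write, copy and erase DNA methylation were followed across 3 congenic mouse cell lines: the methyltransferases Dnmt1, Dnmt3a and Dnmt3b, their targeting factors Uhrf1 and Uhrf2, the chromatin remodeller Hells, and the oxidases Tet1, Tet2 and Tet3. Members were found by matching the RefSeq transcript that names each probe set to these 9 gene symbols, and probe sets with identical values on all arrays were counted once. Of the 9 genes, 7 had at least 1 probe set, in 15 rows that held 8 distinct value profiles, out of 22523 rows with 18172 distinct profiles in all. No row mapped to Tet1 or Tet3, which were therefore not analysed here.

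Total RNA of cultured murine fetal fibroblast lines was hybridized to 8 one-colour Affymetrix arrays. The comparison was built to separate asymmetric self-renewal, in which a division yields 1 cell that keeps dividing and 1 that stops, from symmetric self-renewal. All cultures grew without zinc for 3 days and then for 48 hours in 65 µM ZnCl2, with puromycin at 5 µg/ml throughout. Ind-8 (3 arrays) lacks endogenous p53 and carries a wild-type mouse p53 cDNA behind a zinc-responsive metallothionein promoter, so that zinc induces p53 and asymmetric self-renewal. Con-3 (3 arrays) is p53-null and renews symmetrically; the sample labels call it the parent of Ind-8 and the study's methods call it the vector control line. tI-3 (2 arrays) derives from Ind-8, also induces p53 in zinc, and carries an IMPDH II cDNA expressed constitutively, which keeps it in symmetric self-renewal; its medium also held G418. A single clone stands for every state here, and effects of the clone and of the state cannot be told apart.

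Methyl groups on the cytosine of CpG dinucleotides are copied after replication by Dnmt1, which Uhrf1 guides to hemimethylated DNA, while Dnmt3a and Dnmt3b place methyl groups on DNA that has none. Tet enzymes oxidize 5-methylcytosine, and the oxidized base is then diluted by replication or cut out by repair. Because maintenance is tied to replication, Dnmt1, Uhrf1 and Hells are known as genes whose RNA is most abundant in dividing cells around S phase.

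Values are log2 expression values, and a change is the difference of 2 line means on that scale. A change was called at an adjusted p under 0.05 in limma, fitted to all probe sets that are not array controls. Probe sets differ in brightness, so levels of different genes are no measure of their relative RNA amounts; where levels or medians of marker lists stand side by side or beside a percentile of all probe sets, they are a description of signal on the array.

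Known targets of p53 separated the lines. Cdkn1a, the p53 target that encodes the CDK inhibitor p21, read 9.70, 9.70 and 9.59 in Ind-8, 5.73, 5.81 and 6.03 in Con-3, and 7.55 and 7.33 in tI-3. Mdm2, which encodes the ubiquitin ligase that limits p53, read 10.79, 11.19 and 10.71 in Ind-8, 9.02, 8.79 and 8.87 in Con-3, and 9.67 and 9.56 in tI-3. Both genes were highest in Ind-8 and lowest in Con-3, with tI-3 between them and no overlap. Trp53 itself averaged 5.79 ± 0.0950 (SD, n = 3) in Ind-8, 5.25 ± 0.0408 (SD, n = 3) in Con-3 and 5.64 ± 0.0689 (SD, n = 2) in tI-3. Impdh2 averaged 12.19 in Ind-8, 12.53 in Con-3 and 12.36 in tI-3, so the line with the constitutive cDNA did not have the highest value; whether the probes read that cDNA was not tested. The zinc-induced metallothionein gene Mt1 averaged 13.88, 13.73 and 13.62 in the same order, and none of its differences was called. Mt2, its close relative, was lower in tI-3 (13.07) than in Con-3 (13.45), with an adjusted p of 0.0248, a call lost without Con-3 replicate 2 (0.0867) or tI-3 replicate 2 (0.217).

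Con-3 replicate 3 stood apart from the other arrays in 18S ribosomal RNA. The mean of the 3 probe sets for 18S was 10.63 on that array and lay between 5.58 and 6.46 on the other 7. The mean of the 18 hybridization control probe sets, which read RNA added to every sample, was 10.44 on Con-3 replicate 3 and 10.24 and 10.46 on the tI-3 arrays, against 9.88 to 10.00 on the other 5. The arrays thus fell into 2 sets by hybridization controls, with both tI-3 arrays and Con-3 replicate 3 in the higher one. No set held both Ind-8 and tI-3, so for that pair of lines the array set and the line cannot be told apart except through the Con-3 arrays. The deposited values also spanned a narrower range on the tI-3 arrays. Their upper quartiles were 8.17 and 8.12, against 8.26 to 8.33 on the other arrays. Their lower quartiles were 4.39 and 4.43, against 4.19 to 4.38. The part of this narrower range in the changes of tI-3 was not tested.

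**Figure D1:**
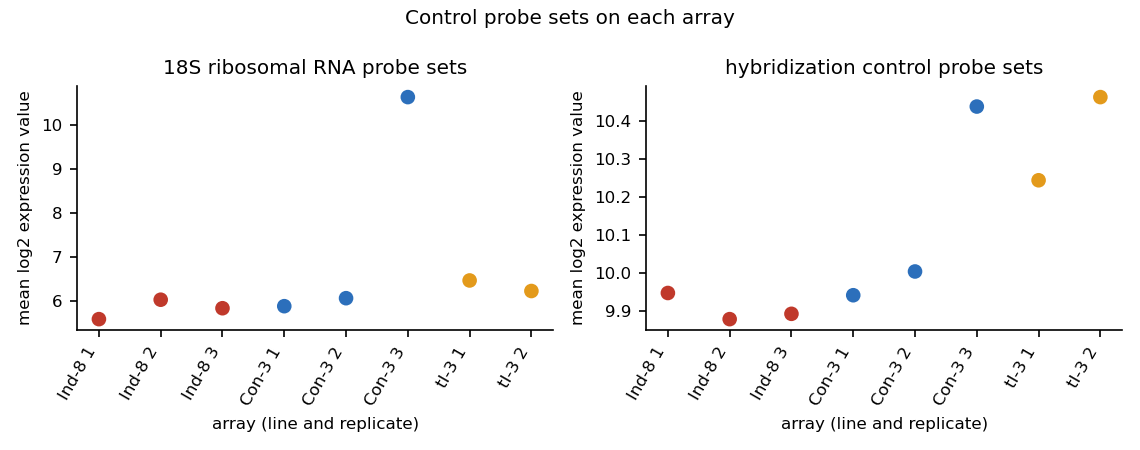
Mean log2 expression value of the 18S ribosomal RNA probe sets (left) and of the hybridization control probe sets (right) on each of the 8 arrays, coloured by line. Con-3 replicate 3 lies far above the others in 18S, at 10.63, and with both tI-3 arrays in the hybridization controls.

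Among the genes that maintain methylation, 3 were lower in the asymmetric line than in the p53-null line. Uhrf1, which binds hemimethylated CpG and brings Dnmt1 to it, read 9.85, 9.54 and 9.80 in Ind-8, 10.23, 10.45 and 10.35 in Con-3, and 9.96 and 9.96 in tI-3. Every Con-3 array was above every tI-3 array, and every tI-3 array above every Ind-8 array. The fall from Con-3 to Ind-8 was -0.61 (SE 0.105, 95% interval -0.85 to -0.38, adjusted p = 0.00254), a 1.53-fold lower level. From Con-3 to tI-3 the change was -0.38 (SE 0.118, adjusted p = 0.0366), and between Ind-8 and tI-3 it was -0.23 (SE 0.118, adjusted p = 0.159), which was not called.

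Hells, a SNF2-family remodeller that opens chromatin for the methyltransferases, read 9.81, 9.76 and 9.60 in Ind-8, 10.69, 10.43 and 10.42 in Con-3, and 10.01 and 9.86 in tI-3. The order of the lines was that of Uhrf1, again with no overlap. Between Ind-8 and tI-3, arrays also did not overlap for other members that were not called, Dnmt3b among them. The share of all probe sets without overlap was not counted. Hells had the largest change of the 7 genes in Ind-8 against Con-3, at -0.79 (SE 0.105, 95% interval -1.03 to -0.56, adjusted p = 0.000665), a 1.73-fold lower level. The Hells change from Con-3 to tI-3 was -0.58 (SE 0.118, adjusted p = 0.00508), and in Ind-8 against tI-3 it was -0.21 (SE 0.118, adjusted p = 0.195) and not called.

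Dnmt1, the maintenance methyltransferase, read 9.80, 9.48 and 9.73 in Ind-8, 9.98, 10.08 and 9.97 in Con-3, and 9.99 and 9.89 in tI-3. Ind-8 lay below both other lines, which overlapped. The change from Con-3 to Ind-8 was -0.34 (SE 0.102, 95% interval -0.57 to -0.12, adjusted p = 0.0352). Against tI-3 it was -0.27 (SE 0.114, adjusted p = 0.0898), and tI-3 against Con-3 gave -0.07 (adjusted p = 0.701); neither was called, though after quantile normalization that against tI-3 was (-0.39, adjusted p = 0.0285). The Dnmt1 call was lost without any 1 of 5 arrays: Con-3 replicate 3 (adjusted p = 0.0671), Con-3 replicate 1 (0.0613), Con-3 replicate 2 (0.116), Ind-8 replicate 2 (0.125) or Ind-8 replicate 3 (0.0561).

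In these bulk cultures, fewer cells that express a gene and less RNA per cell cannot be told apart.

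**Figure D2:**
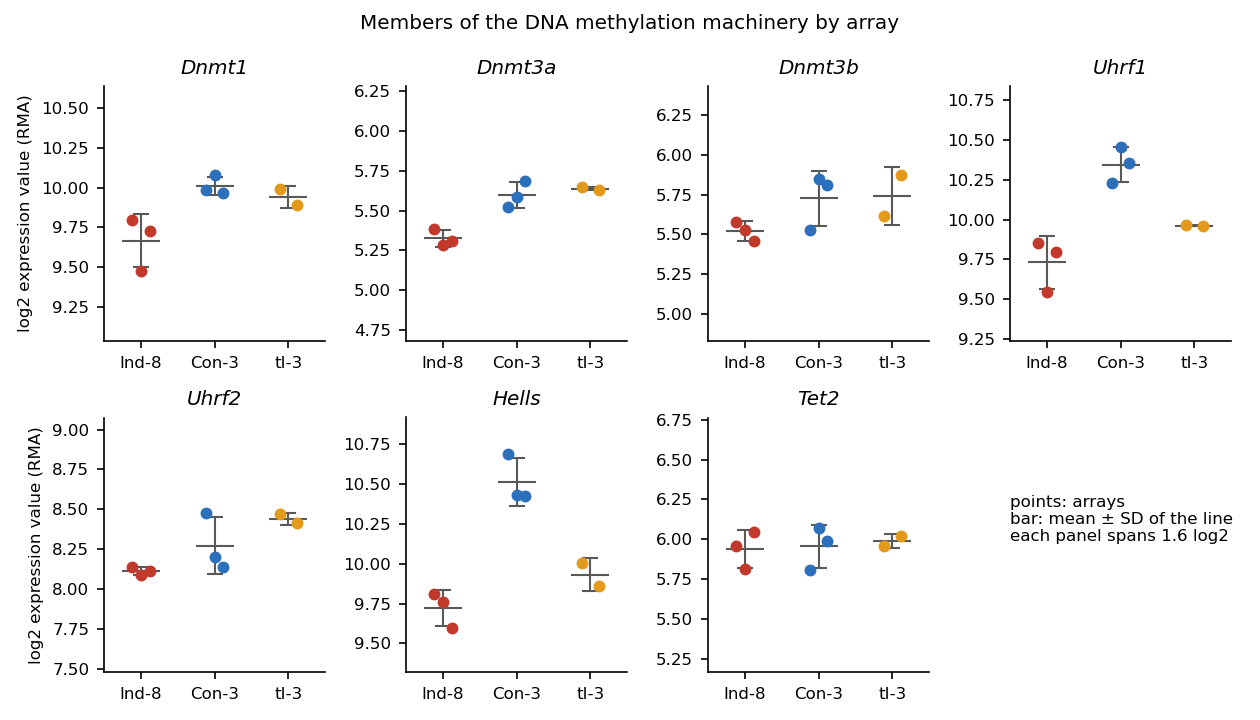
Log2 expression value of the 7 measured genes on each array, grouped by line, with points for arrays and bars for the mean ± SD of the line; each panel spans the same range of log2 values. Hells and Uhrf1 are highest in Con-3 and lowest in Ind-8 without overlap, while Tet2 overlaps in all 3 lines.

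Of the members' promoters, the 3 with an E2F-type match are shown, since E2F-type motifs are known from promoters of S phase genes. All 9 genes had at least 1 promoter in RefSeq's table on GRCm38.p6, 14 promoters in all, each from 250 bases before to 50 after an annotated start. They were searched on both strands for the E2F-type motifs TTTCCCGC, TTTGGCGC, TTTCGCGC and TTTGCCGC, for the CHR motifs TTTGAA and TTCGAA, and for CCAAT. An E2F-type match occurred in 3 of the 14 promoters, 1 each of Dnmt1, Uhrf1 and Hells, and in 2.26% of all 32851 promoters; the 3 promoters of Dnmt3a, the other gene called lower in Ind-8 than in Con-3, held 0. The 3 promoters follow 5′ to 3′ in the direction of the gene, on chr9:20952574-20952873 (minus strand), chr17:56304063-56304362 (plus strand) and chr19:38930740-38931039 (plus strand), with E2F-type matches in capitals.
Dnmt1: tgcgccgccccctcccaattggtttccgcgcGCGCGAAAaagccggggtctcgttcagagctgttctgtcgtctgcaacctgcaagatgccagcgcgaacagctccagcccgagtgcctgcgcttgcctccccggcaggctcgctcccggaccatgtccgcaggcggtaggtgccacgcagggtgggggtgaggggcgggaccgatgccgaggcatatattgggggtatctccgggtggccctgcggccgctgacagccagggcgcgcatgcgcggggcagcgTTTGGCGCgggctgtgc
Uhrf1: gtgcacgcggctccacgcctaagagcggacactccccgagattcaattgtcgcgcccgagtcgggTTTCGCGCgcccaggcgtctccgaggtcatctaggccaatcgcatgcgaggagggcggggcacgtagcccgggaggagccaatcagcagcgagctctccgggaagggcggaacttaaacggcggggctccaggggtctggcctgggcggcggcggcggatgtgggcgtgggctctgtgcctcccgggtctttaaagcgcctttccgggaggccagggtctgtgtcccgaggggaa
Hells: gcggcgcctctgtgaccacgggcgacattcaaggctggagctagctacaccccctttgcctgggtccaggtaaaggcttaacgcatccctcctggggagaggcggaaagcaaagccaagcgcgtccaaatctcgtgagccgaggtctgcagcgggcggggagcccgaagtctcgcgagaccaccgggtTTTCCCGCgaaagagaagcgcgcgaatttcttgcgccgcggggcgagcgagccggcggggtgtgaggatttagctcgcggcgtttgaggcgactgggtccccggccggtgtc
The Dnmt1 promoter held 2 matches and the others 1 each. Dnmt1 has another 2 promoters and Uhrf1 another 1 in the table, without an E2F-type match, and which start the cells used was not measured. CCAAT occurred in the Dnmt1 and Uhrf1 promoters shown, in 1 other promoter of each and in that of Tet3, against 37.4% of all promoters. A CHR motif occurred in 1 of the Dnmt1 promoters not shown and in that of Dnmt3b, against 19.2% of all. The number of CpG, the dinucleotide these proteins act on, was 33, 33 and 34 in the Dnmt1, Uhrf1 and Hells promoters shown, 2 and 12 in the other Dnmt1 promoters and 12 in the other of Uhrf1. It was 46, 47 and 18 in those of Dnmt3a, 30 in Dnmt3b, 28 in Uhrf2, 17 in Tet1, 57 in Tet2 and 22 in Tet3, against a median of 7.0 over all promoters. Each E2F-type motif contains a CpG, and the share of 2.26% over all promoters was not matched for CpG content. A match of letters is a description of the window and not a bound site.

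Uhrf2, the paralogue of Uhrf1, read 8.14, 8.09 and 8.12 in Ind-8, 8.48, 8.20 and 8.14 in Con-3, and 8.47 and 8.41 in tI-3. Both tI-3 arrays were above all Ind-8 arrays, and Con-3 overlapped both. Its change was -0.33 (SE 0.114) in Ind-8 against tI-3, with an adjusted p of 0.0510 that missed the threshold; it passed in 7 of 17 alternatives. These were leaving out Con-3 replicate 1 (adjusted p = 0.0246) or Con-3 replicate 3 (0.0436), fitting only the 2 lines (0.0357), leaving out dim rows (0.0455), a trended prior (0.0470), centring the arrays (0.0473) and quantile normalization (0.00816); with the other alternatives the adjusted p ran up to 0.175. Uhrf2 differed by -0.16 (adjusted p = 0.312) between Ind-8 and Con-3, and by 0.17 (adjusted p = 0.315) between tI-3 and Con-3.

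Of the de novo methyltransferases, Dnmt3a was lower in Ind-8 than in either symmetric line, by a small amount. The brighter of its 2 profiles read 5.38, 5.29 and 5.31 in Ind-8, 5.52, 5.58 and 5.69 in Con-3, and 5.65 and 5.63 in tI-3. All Ind-8 arrays were below all others, and Con-3 and tI-3 overlapped. The change was -0.27 (SE 0.0847, adjusted p = 0.0438) against Con-3 and -0.31 (SE 0.0947, adjusted p = 0.0305) against tI-3. The other profile of Dnmt3a read 5.40, 5.35 and 5.31 in Ind-8, 5.48, 5.57 and 5.57 in Con-3, and 5.59 and 5.36 in tI-3. It was not called, at -0.19 (adjusted p = 0.182) against Con-3 and -0.12 (adjusted p = 0.367) against tI-3. Removing any 1 array other than Con-3 replicate 1 ended the call against Con-3: the Dnmt3a adjusted p was 0.138 without Con-3 replicate 3, 0.102 without Con-3 replicate 2, 0.0613, 0.125 and 0.108 without Ind-8 replicates 1, 2 and 3, and 0.0588 without either tI-3 array, which is the same as fitting only the 2 lines. With the replicate number as a block it was 0.0554. The Dnmt3a call against tI-3 was lost without Ind-8 replicate 2 (0.0773), Ind-8 replicate 3 (0.0689), tI-3 replicate 1 (0.106) or tI-3 replicate 2 (0.121). Neither Dnmt3a call was made on the mean of both profiles, with adjusted p of 0.0842 and 0.102.

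Dnmt3b, the other de novo enzyme, ranged from 5.46 to 5.58 in Ind-8, from 5.53 to 5.85 in Con-3 and from 5.61 to 5.87 in tI-3. None of its 3 changes was called, with adjusted p of 0.229, 0.199 and 0.945. Tet2, the 1 measured oxidase, ranged from 5.81 to 6.04 in Ind-8, from 5.81 to 6.07 in Con-3 and from 5.96 to 6.02 in tI-3. Its largest change was -0.05, in Ind-8 against tI-3, with a 95% interval from -0.30 to 0.20. All 7 genes had a mean above 4.30, the 25th percentile of all probe sets.

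**Figure D3:**
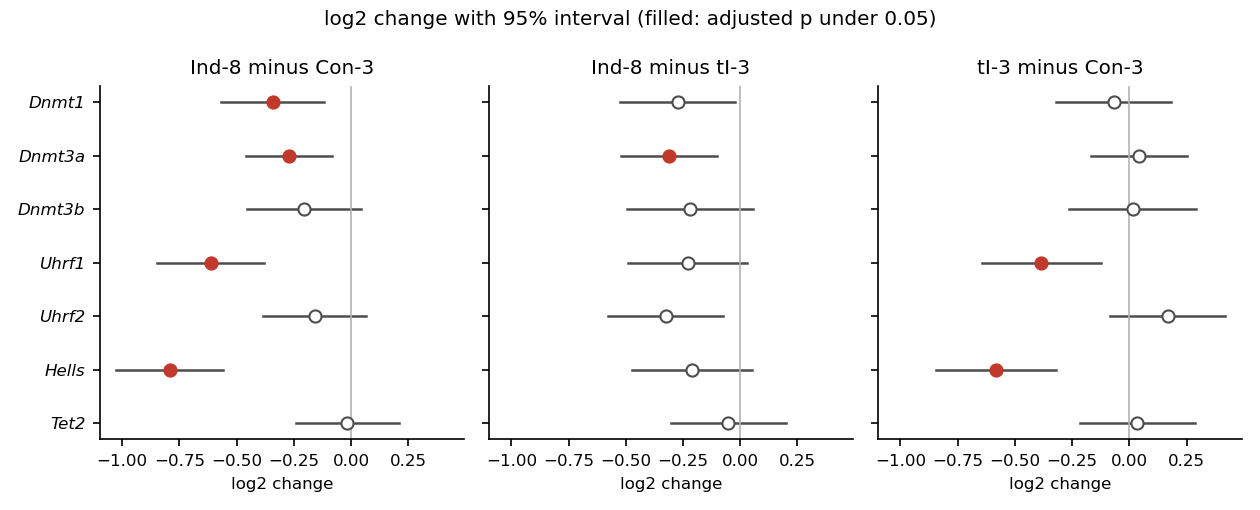
Log2 change of the 7 measured genes in each of 3 comparisons between lines, with the 95% interval of the limma fit; filled points passed an adjusted p under 0.05. In Ind-8 minus Con-3 the 4 filled points are Hells, Uhrf1, Dnmt1 and Dnmt3a, all below 0.

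In Ind-8 against Con-3, 4 of the 7 genes were called lower and 0 higher; over all probe sets, 11.0% were called lower and 10.9% higher. In tI-3 against Con-3, 2 of 7 were called lower, Uhrf1 and Hells, and 0 higher, against 15.1% lower and 10.2% higher over all. In Ind-8 against tI-3, 1 of 7 was called lower, Dnmt3a, and 0 higher, against 15.5% lower and 15.6% higher, a share near the background. The median change of the 7 genes was -0.27, 0.01 and -0.23 in that order of comparisons, beside -0.06, 0.04 and -0.06 over all probe sets. These comparisons share arrays and are not independent.

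Without Con-3 replicate 3, 2 of 7 genes were called in Ind-8 against Con-3, Uhrf1 (-0.61, adjusted p = 0.0109) and Hells (-0.84, adjusted p = 0.00213). That fit called 16.2% of all probe sets in either direction, against 21.9% with all arrays. Within the arrays of low hybridization controls, Uhrf1 was at -0.61 (adjusted p = 0.0206), Hells at -0.84 (0.00480), Dnmt1 at -0.36 (0.0879) and Dnmt3a at -0.23 (0.162), the last 2 not called. Between tI-3 and Con-3, Uhrf1 lost its call without Con-3 replicate 3 (-0.38, adjusted p = 0.0680), Con-3 replicate 2 (0.116), tI-3 replicate 1 (0.120) or tI-3 replicate 2 (0.149), and with the replicate number as a block (adjusted p = 0.0660). Hells lost its call there without tI-3 replicate 2 (-0.51, adjusted p = 0.0563). Within the arrays of high hybridization controls, which hold 1 Con-3 array, Uhrf1 was at -0.39 (adjusted p = 0.154) and Hells at -0.49 (adjusted p = 0.0986), and neither was called; with 1 Con-3 array the spread there comes from the 2 tI-3 arrays. With the array set as a block in the fit of all 8 arrays, neither was called either, Uhrf1 at -0.39 (adjusted p = 0.159) and Hells at -0.49 (adjusted p = 0.0731). With the same block, Dnmt3a in Ind-8 against tI-3 was at -0.18 (adjusted p = 0.576) and not called.

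The rank product, the test stated in the study's methods, called fewer. On simulated data with the measured spread of each row it made more false calls than its threshold allows, so its calls are given as a description. At a proportion of false positives (pfp) under 0.05 it called Hells lower in Ind-8 than in Con-3 (pfp 0.0336), 1 of 7 genes, against 1.44% of all probe sets called lower and 2.17% higher. Uhrf1 had a pfp of 0.111 there. The Hells call by rank product held without Ind-8 replicate 1 and was lost without Ind-8 replicate 2, Ind-8 replicate 3 or any 1 Con-3 array. It called 0 of 7 in Ind-8 against tI-3, where 1.56% of all probe sets were called higher and 0.440% lower, and 0 of 7 in tI-3 against Con-3, where 0.630% were called higher and 1.67% lower. At an unadjusted p under 0.05, limma counted 3 and 2 of the 7 in these 2 comparisons. The stricter adjusted p already passed 31.1% and 25.4% of all probe sets there. The share of all probe sets at the unadjusted p is not given here, so these counts are only a description.

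Over the 8 arrays, the genes whose centred profiles were closest to Uhrf1 among 11972 others were Fam185a, Tedc1 and Jpt1, with root mean square differences of 0.0563, 0.0586 and 0.0690 on the log2 scale. For Hells they were Dkc1, Krr1 and Chek1, at 0.0637, 0.0664 and 0.0707. No other member had line means at least 0.5 apart.

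Most of the listed S phase genes were lower in Ind-8 than in Con-3. Of 25 measured genes of DNA replication and cell division, 17 were lower in Ind-8 than in Con-3 and 0 higher, beside 11.0% and 10.9% over all probe sets, with a median change of -0.42 beside -0.06. The replication licensing factor Cdc6 fell by 0.94 (SE 0.0980, adjusted p = 0.000160), the helicase subunit Mcm5 by 0.86, thymidine kinase Tk1 by 0.86 and the flap endonuclease Fen1 by 0.74. Against tI-3, 9 of the 25 were lower in Ind-8 and 0 higher, among them the cyclin Ccna2 (-0.69) and Tyms (-0.61), beside 15.5% and 15.6% over all, with a median of -0.27. From Con-3 to tI-3, 5 were lower, among them Cdc6 (-0.82) and Mcm5 (-0.75), and 1 was higher, the chromatin assembly subunit Chaf1b (0.44), beside 15.1% and 10.2% over all, with a median of -0.07. The part of these genes in the lower Dnmt1, Uhrf1 and Hells values was not tested. Without Con-3 replicate 3, 13 of the 25 were called lower in Ind-8 than in Con-3. That fit called 16.2% of all probe sets in either direction. Leaving out either tI-3 array leaves 1 in that line. Fewer of the 25 were then called lower in Ind-8 than in tI-3, as were fewer of all probe sets. Without tI-3 replicate 1 and without tI-3 replicate 2, Tyms was not called there, with changes of -0.64 and -0.58. The Chaf1b call in tI-3 against Con-3 was also lost without either of them, with changes of 0.45 and 0.42. Without Con-3 replicate 1, and with quantile normalization, 2 were called higher in tI-3 than in Con-3, Chaf1b and Rrm2. Rrm2 was named after its values were seen. Those fits called 21.8% and 23.8% of all probe sets in either direction. Without tI-3 replicate 2, fewer S phase genes and fewer of all probe sets were called lower in tI-3 than in Con-3. The array set by hybridization controls was also fitted as a block. In Ind-8 against tI-3, limma then called 0 of the 25 S phase genes and 0 of the 7 members. Of all probe sets, 3.14% were called there with the block, against 31.1% without it. Over the alternatives, this block included, the change of Ccna2 there ran from -0.81 to -0.56 and that of Fen1 from -0.71 to -0.54. Tyms ran from -0.73 to -0.44 and Mcm3 from -0.61 to -0.39. Of the other named genes in all lists, 4 of the 29 called in Ind-8 against tI-3 were still called with that block, 21 of 40 in tI-3 against Con-3 and 25 of 31 in Ind-8 against Con-3. The 4 were Cdkn1a, Mdm2 and the fibroblast genes Pdgfra and Col1a1, and the calls of all other lists between Ind-8 and tI-3 were lost with it. A lost call was not always a lost change. Over the alternatives, this block included, Shmt1 ran there from -0.95 to -0.71, Cxxc1 from -0.83 to -0.58 and Kdr from -0.85 to -0.63. Others came closer to no change, with Neil3 from -0.64 to -0.29 and Asz1 from -0.45 to -0.085.

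**Figure D4:**
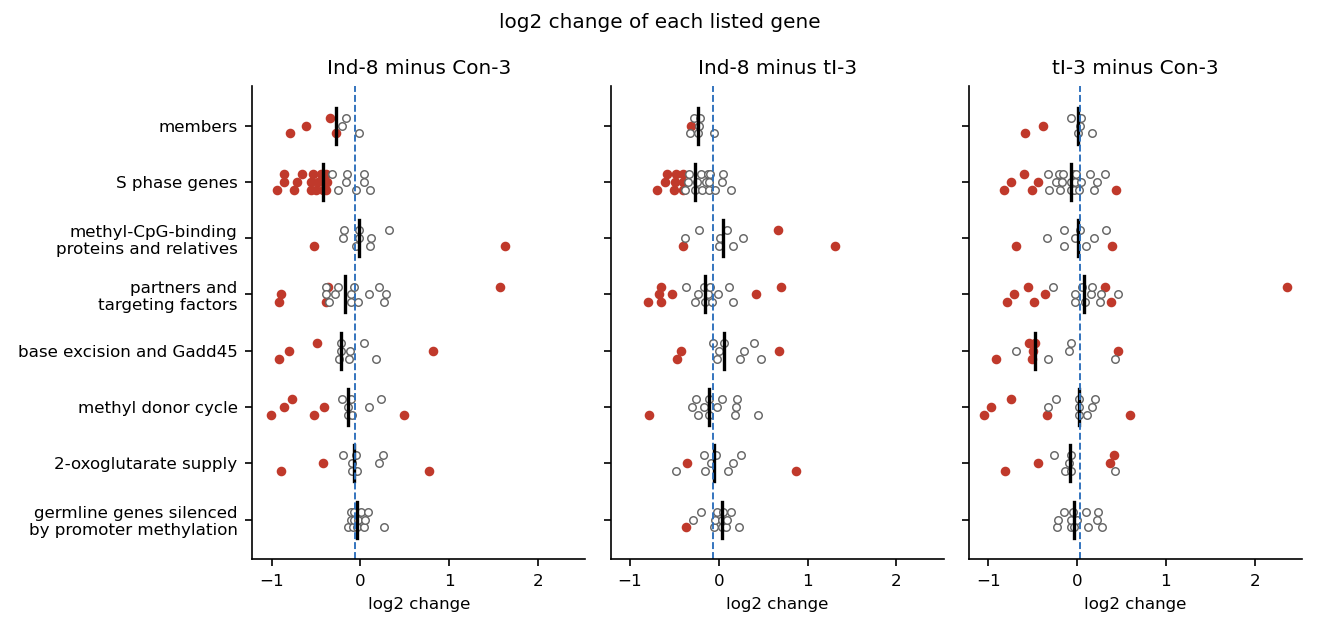
Log2 change of each listed gene in 3 comparisons between lines; filled points passed an adjusted p under 0.05, black bars are list medians and the dashed line is the median of all probe sets. In Ind-8 minus Con-3, the members and the S phase genes have the lowest medians, -0.27 and -0.42, and germline genes lie close to 0.

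A list of methyl-CpG-binding proteins and their relatives held genes of the methyl-CpG-binding domain family and zinc finger proteins. Of 10 measured, 1 was higher in Ind-8 than in Con-3, Mbd5 (1.63, SE 0.208, adjusted p = 0.000528), and 1 was lower, Mbd3 (-0.52), a subunit of the NuRD complex, a share near that over all probe sets (10.9% higher and 11.0% lower). Mammalian Mbd3 and Mbd5 carry the domain but are known not to bind methylated CpG selectively. Mbd5 averaged 5.90 in Ind-8 (SD 0.453), 4.27 in Con-3 and 4.59 in tI-3, the last 2 near the 25th percentile of all probe sets (4.30). Mbd5 was also higher in Ind-8 than in tI-3, by 1.31, as was the methyl-CpG-binding zinc finger protein Zbtb4, by 0.66, and Mbd1 was lower there (-0.40), beside 15.6% higher and 15.5% lower over all. Between tI-3 and Con-3, Mbd1 was higher (0.39) and Mbd3 lower (-0.68), beside 10.2% and 15.1% over all. The Mbd3 call in Ind-8 against Con-3 was lost without Ind-8 replicate 2 (adjusted p = 0.0605), Con-3 replicate 2 (0.0587) or Con-3 replicate 3 (0.0550). Both Mbd1 calls were lost without tI-3 replicate 1 (0.050 and 0.060) or tI-3 replicate 2 (0.0886 and 0.0987), and that against Con-3 also without Con-3 replicate 2 (0.0516). Lower calls numbered 2 in Ind-8 against tI-3 without Con-3 replicate 1, and 2 in tI-3 against Con-3 without Ind-8 replicate 2. Those fits called 32.2% and 24.5% of all probe sets in either direction.

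Of 18 measured partners and targeting factors, 1 was higher and 4 lower in Ind-8 than in Con-3, beside 10.9% and 11.0% over all probe sets, with a median change of -0.18 beside -0.06. Cdca7, which recruits Hells to chromatin, was lower in Ind-8 (-0.91, SE 0.190, adjusted p = 0.00713). Its paralogue Cdca7l went the other way. It read 7.08, 6.99 and 7.36 in Ind-8, 5.31, 5.71 and 5.70 in Con-3, and 7.88 and 7.99 in tI-3. The lines did not overlap, and Cdca7l was higher than in Con-3 by 1.57 in Ind-8 (adjusted p = 5.83e-05) and by 2.36 in tI-3 (adjusted p = 7.47e-06). Suv39h1, which methylates histone H3 at lysine residues of silent chromatin, was lower in Ind-8 than in Con-3 (-0.89, adjusted p = 0.000140). Against tI-3, where 15.6% of all probe sets were higher and 15.5% lower, 2 were higher in Ind-8 and 5 lower, among them Ogt (-0.65), whose product binds Tet proteins, and Cxxc1 (-0.67). Relative to Con-3, tI-3 had 3 higher and 5 lower, beside 10.2% and 15.1% over all, among them Cdca7 (-0.79) and Dmap1 (-0.70). With the array set as a block, 1 was higher there, Cdca7l, and 1 lower, Dmap1, beside 13.6% of all probe sets called in either direction. The Cdca7 call in tI-3 was lost without Con-3 replicate 2 (0.0512), Con-3 replicate 3 (0.0551) or tI-3 replicate 1 (0.160), each an adjusted p. The 3 higher became 1 without Con-3 replicate 1 or Con-3 replicate 2, beside 21.8% and 18.7% of all probe sets called in either direction. The 5 lower became 3 without Con-3 replicate 2 or Con-3 replicate 3, beside 18.7% and 23.7%. The 2 higher in Ind-8 than in tI-3 became 1 without Ind-8 replicate 2 or Ind-8 replicate 3, beside 22.9% and 27.9%. Without tI-3 replicate 1, each of these 3 counts fell, as did those over all probe sets. Without tI-3 replicate 2, the last 2 of them fell, again with those over all probe sets.

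Of 11 measured genes of base excision repair and the Gadd45 family, 3 were lower in Ind-8 than in Con-3 and 1 higher, beside 11.0% and 10.9% over all probe sets, with a median change of -0.21 beside -0.06. The uracil glycosylase Ung fell by 0.92 (SE 0.0973, adjusted p = 0.000176), the glycosylase Neil3 by 0.80 and Parp1 by 0.48, while Gadd45g was higher by 0.82. Compared with Con-3, tI-3 had 5 lower, led by Ung (-0.92), and 1 was higher, Xrcc1 (0.47), beside 15.1% and 10.2% over all, with a median of -0.47 beside 0.04. Against tI-3, Polb was higher in Ind-8 (0.68), and Neil3 (-0.47) and Xrcc1 (-0.43) were lower, beside 15.6% and 15.5% over all. The Neil3 call against tI-3 was lost without tI-3 replicate 2 (adjusted p = 0.133). Xrcc1 lost both calls without tI-3 replicate 1 (0.0705 and 0.0597) or tI-3 replicate 2 (0.0856 and 0.0657), and that in Ind-8 against tI-3 also without Ind-8 replicate 2 (0.0534). Higher calls in Ind-8 against tI-3 numbered 2 without Ind-8 replicate 2 or Con-3 replicate 1. Those fits called 22.9% and 32.2% of all probe sets in either direction.

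Of 13 measured genes of the methyl donor cycle, which supplies S-adenosylmethionine, 5 were lower in Ind-8 than in Con-3 and 1 higher, beside 11.0% and 10.9% over all probe sets, with a median change of -0.14 beside -0.06. The folate enzymes Mthfd2 (-1.01, adjusted p = 0.000625), Mthfd1 (-0.85) and Shmt1 (-0.77) were lower, and Mat2b, the regulatory subunit of methionine adenosyltransferase, was higher (0.49). Of the same genes, tI-3 had 4 lower than Con-3, among them Mthfd2 (-1.05) and Shmt2 (-0.97), and 1 higher, Mat2b (0.59), beside 15.1% and 10.2% over all. Against tI-3, 1 was lower in Ind-8, Shmt1 (-0.79), and 0 higher, beside 15.5% and 15.6% over all. At an unadjusted p under 0.05 in limma, 3 of the 13 passed there, while 31.1% of all probe sets passed the stricter adjusted p. The replicate number as a block gave 3 lower there, beside 37% of all probe sets called in either direction. Centring the arrays gave 2 (32% of all) and the array set as a block 0 (3.14%). The 5 lower in Ind-8 than in Con-3 became 3 without Ind-8 replicate 2, Con-3 replicate 2 or Con-3 replicate 3. Those fits called 15.5%, 16.9% and 16.2% of all probe sets in either direction. The Mat2b call there was lost without those 3 arrays (adjusted p of 0.0724, 0.0571 and 0.0712) or Ind-8 replicate 3 (0.0597), and its call in tI-3 against Con-3 without tI-3 replicate 1 (0.0909). Against tI-3, 2 were lower in Ind-8 without Con-3 replicate 1 or Con-3 replicate 3, and 1 was higher without Ind-8 replicate 2. Those fits called 32.2%, 32.2% and 22.9% of all probe sets in either direction.

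Tet enzymes need 2-oxoglutarate. Of 10 measured genes of its supply and of its competitors, 1 was higher and 2 lower in Ind-8 than in Con-3, a share near the 10.9% and 11.0% over all probe sets, and the median change was -0.07 beside -0.06. Idh1, the cytosolic isocitrate dehydrogenase that makes 2-oxoglutarate, was higher in Ind-8 than in Con-3 (0.78, SE 0.117, adjusted p = 0.00126) and than in tI-3 (0.87, adjusted p = 0.00122). Idh3a was lower in Ind-8 than in either line. Of the 10, tI-3 had 2 higher than Con-3, Sdha (0.42) and Idh3b (0.37), and 2 lower, with Fh1 at -0.44, beside 10.2% and 15.1% over all. Idh3b lost this call without Con-3 replicate 2 (adjusted p = 0.0542) or tI-3 replicate 1 (0.139), Sdha without tI-3 replicate 1 (0.106) and Fh1 without tI-3 replicate 2 (0.0856). The Idh3a call against tI-3 was lost without Ind-8 replicate 1 (adjusted p = 0.0860). It was also lost without tI-3 replicate 1 or tI-3 replicate 2, with changes of -0.28 and -0.43. In Ind-8 against tI-3, 2 genes were called lower without Ind-8 replicate 3 or Con-3 replicate 1. Those fits called 27.9% and 32.2% of all probe sets in either direction. With quantile normalization, 3 of the 10 were lower in Ind-8 than in tI-3, beside 25.5% of all probe sets called in either direction. The replicate number as a block gave 2 (37% of all), a trended prior 2 (31.4%) and the array set as a block 0 (3.14%). Without Ind-8 replicate 1, 2 were higher in Ind-8 than in Con-3, beside 18% of all probe sets called in either direction.

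Germline genes that promoter methylation is known to silence in somatic cells had low values on the array. The means of 13 measured genes ran from 3.14 for Stk31 to 4.42 for Rhox5, and 1 of the 13 lay above the 25th percentile of all probe sets. In Ind-8 against Con-3, limma called 0 of the 13, beside 11.0% lower and 10.9% higher over all probe sets. It also called 0 in tI-3 against Con-3, beside 15.1% lower and 10.2% higher, and 1 lower in Ind-8 against tI-3, Asz1 (-0.37, adjusted p = 0.0415), beside 15.5% lower and 15.6% higher. The Asz1 call was lost without Ind-8 replicate 1 (0.0914), Ind-8 replicate 2 (0.111), Con-3 replicate 2 (0.0586), tI-3 replicate 1 (0.0709) or tI-3 replicate 2 (0.234). Rhox5 was called lower in Ind-8 than in tI-3 without tI-3 replicate 1 (-0.44, adjusted p = 0.0367). Tex11 was called higher with a trended prior in Ind-8 (0.26, adjusted p = 0.0444) and in tI-3 (0.28, adjusted p = 0.0465), each against Con-3, and with quantile normalization in Ind-8 against Con-3 (0.33, adjusted p = 0.0236); Rhox5 and Tex11 are named after their values were seen. At an unadjusted p under 0.05, 1 of the 13 passed in each comparison with no call. Of all probe sets, 21.9% passed the stricter adjusted p in Ind-8 against Con-3 and 25.4% in tI-3 against Con-3. DNA methylation itself was not measured.

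The label of fibroblast was checked against markers. Of 10 fibroblast markers, 9 had means above the 25th percentile, from 4.16 for Thy1, the 1 below it, to 13.89 for Vim. The median of this list ran from 9.98 on tI-3 replicate 1 to 10.92 on Ind-8 replicate 3. Of the 10, 3 were lower in tI-3 than in Con-3, Col3a1 (-2.68), Col1a1 (-1.06) and Pdgfra (-1.04), and 3 higher, Thy1 (0.37), Pdgfrb (0.33) and Fn1 (0.28), beside 15.1% lower and 10.2% higher over all probe sets. In Ind-8 against tI-3, 5 were higher, led by Col3a1 (2.42), Pdgfra (1.51), Col1a1 (1.49) and Fn1 (0.42), and 1 lower, Thy1 (-0.67), beside 15.6% and 15.5% over all. Ind-8 had 2 higher than Con-3, Fn1 (0.70) and Pdgfrb (0.38), and 1 lower, Thy1 (-0.30), beside 10.9% and 11.0% over all. The Col1a1 adjusted p in tI-3 against Con-3 was 0.0518 without tI-3 replicate 1, and that of Fn1 in Ind-8 against tI-3 was 0.0503 without the same array. Fn1 lost its call in tI-3 against Con-3 without any 1 array, at 0.0569, 0.0614 and 0.0690 without Ind-8 replicates 1, 2 and 3, at 0.0605, 0.139 and 0.0784 without Con-3 replicates 1, 2 and 3, and at 0.0929 and 0.235 without tI-3 replicates 1 and 2. Thy1 lost it without Con-3 replicate 1 (0.0699), Con-3 replicate 2 (0.0886), tI-3 replicate 1 (0.165) or tI-3 replicate 2 (0.0570), and Pdgfrb without Con-3 replicate 1 (0.0584), Con-3 replicate 3 (0.0735), tI-3 replicate 1 (0.121) or tI-3 replicate 2 (0.107). The Thy1 call in Ind-8 against Con-3 was lost without any 1 array, at 0.0560, 0.141 and 0.0999 without Ind-8 replicates 1, 2 and 3, at 0.0583, 0.0724 and 0.149 without Con-3 replicates 1, 2 and 3, and at 0.0520 without either tI-3 array. With the array set as a block, 0 of the 10 were called higher in tI-3 than in Con-3, and 2 higher and 0 lower in Ind-8 than in tI-3. Of all 22523 probe sets, that block called 1139 higher in tI-3 than in Con-3. It called 496 higher and 212 lower in Ind-8 than in tI-3. Medians of the other marker lists lay between 4.01 and 4.61 for 5 epithelial genes (Cdh1 3.61, Krt5 5.20), between 3.48 and 3.95 for 3 blood cell genes (Ptprc 3.58, Cd3e 5.45), between 3.87 and 4.22 for 4 endothelial genes (Tek 3.75, Kdr 6.15) and between 3.21 and 3.32 for 4 pluripotency genes (Sox2 3.10, Pou5f1 3.99). Kdr was called in all 3 comparisons, lowest in Ind-8 (5.84) and highest in tI-3 (6.60), and Cd3e was higher in tI-3 (5.77) than in Ind-8 (5.34) or Con-3 (5.35). Without tI-3 replicate 2, both Cd3e calls were lost (adjusted p of 0.109 and 0.133), as was the Kdr call against Con-3 (0.124). The Kdr call in tI-3 against Con-3 was also lost without Con-3 replicate 2 (0.0516), and that in Ind-8 against Con-3 without Ind-8 replicates 1, 2 or 3 (0.0505, 0.124 and 0.0859), Con-3 replicate 1 (0.0874) or Con-3 replicate 3 (0.120).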

How the data were processed

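The deposited values are log2 expression values that the authors made with RMA (background correction, quantile normalization and median polish) from Affymetrix mouse genome arrays, with a chip description file that groups probes by RefSeq transcript. Each array read 1 of 8 RNA preparations, and the number of arrays limits the precision. The 64 control rows were left out of tests, and 81.2% of the other rows were named through a RefSeq table on GRCm38.p6. The study's methods name the release of that file; the genome build behind it is not given in the sources used here.

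Line means were compared with limma 3.58.1 in R 4.3.3 over 22523 rows and 8 arrays, with Benjamini-Hochberg adjustment. A gene with several distinct profiles was represented by the one with the highest mean. The rank product was written anew, with 100 permutations of the rows within each array; these assume 1 spread for all rows. Both were tested on simulated data; with rows of unequal spread the rank product made more false calls than its pfp threshold allows, and with 1 spread it did not. Figures and tables used Python 3.11.15.

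Members and gene lists were chosen with earlier results of these data known. Named genes were the members, 6 label checks, up to 4 called genes with the largest change per list, direction and comparison, the lowest and highest level of marker lists, and the 3 closest profiles of each member whose line means differed by at least 0.5. The values of 1 listed gene are not reported here.

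The alternatives were a replicate block, a trended prior, 2-line fits, a filter on dim rows, identical rows once, other scalings, array sets by hybridization controls, the mean of a gene's profiles, and leaving out each array.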

Additional observations from a re-analysis of the deposited data

How the results depend on the processing

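The 18 alternatives to the limma fit of Ind-8 against Con-3 are 15 distinct fits: leaving out either tI-3 array equals fitting only the 2 lines, and the array set as a block equals leaving out Con-3 replicate 3. Uhrf1 and Hells kept their calls there in all 15, with changes from -0.68 to -0.52 and from -0.84 to -0.71. Dnmt1 kept its call in 9 of 15, with adjusted p from 0.0216 to 0.125, and Dnmt3a in 5 of 15, from 0.0331 to 0.162. In tI-3 against Con-3, Hells kept its call in 15 and Uhrf1 in 10 of 18. Dnmt3a kept its call in Ind-8 against tI-3 in 9 of 17. The causes were not tested.

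In Ind-8 against Con-3, the 4 genes called became 2 with the array set by hybridization controls as a block, and 2 within the set of low controls; leaving out 1 array gave from 2 to 3. In Ind-8 against tI-3, the 1 gene called became 2 with only the 2 lines fitted, with dim rows left out and with arrays centred. These 2 of 7 were Dnmt3a and Uhrf2 each time, beside 29.9%, 39.4% and 32% of the probe sets tested, called in either direction. With arrays quantile-normalized again they were Dnmt1 and Uhrf2, beside 25.5%. The array set as a block gave 0, beside 3.14%, and the mean of a gene's profiles also gave 0. Leaving out 1 Ind-8 or Con-3 array gave from 0 to 2, and a trended prior (31.4%) called Uhrf2 in place of Dnmt3a. In tI-3 against Con-3, the 2 genes called became 1 after quantile normalization, 0 with the array set as a block and 0 within the set of high controls; leaving out 1 array gave from 0 to 2. With 1 tI-3 array left, that array is assumed to vary like the other lines. The call lost in tI-3 against Con-3 after quantile normalization was that of Uhrf1. Of all calls in that comparison, 40.3% were higher in tI-3 before this step and 47.6% after it.

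Over all probe sets, the array set as a block called 708 in Ind-8 against tI-3, 681 of them also among the 7009 calls without it and in the same direction, with 70.1% of the 708 higher against 50.1% of the 7009. In tI-3 against Con-3 it called 3066, of which 2900 were among the 5715. Leaving out 1 array gave from 2781 to 7261 and from 3093 to 5625 calls in these comparisons and, in Ind-8 against Con-3, from 3493 to 4637, beside 4942 with all arrays. The lowest counts of the first 2 came without tI-3 replicate 2. The rank product's 1 gene in Ind-8 against Con-3 became 0 at a pfp under 0.01, and from 0 to 1 with 1 array left out.

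Replicate numbers were shared by the labels. Deviations of same-numbered Ind-8 and Con-3 arrays correlated at 0.270, 0.029 and 0.381, and those of differently numbered ones at -0.408 to 0.117. Same-numbered arrays correlated at 0.009 and -0.225 between Ind-8 and tI-3, and at 0.205 and 0.042 between Con-3 and tI-3. Whether arrays of a number were prepared together cannot be told from these values. The main fit did not pair them, and the replicate number was fitted as a block as an alternative. With this block, 3, 1 and 1 genes were called in Ind-8 against Con-3, Ind-8 against tI-3 and tI-3 against Con-3. Of all probe sets, 5382, 8341 and 6376 were called with it, and 4942, 7009 and 5715 without it.

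Signs turned where changes were small and not called. Quantile normalization gave Dnmt1 0.038, Dnmt3a -0.031, Dnmt3b -0.048 and Mt1 0.20 in tI-3 against Con-3, and Mt1 -0.089 in Ind-8 against tI-3. For tI-3 against Con-3, the array set as a block, and the set of high controls alone, gave Dnmt3a -0.047 and Dnmt3b -0.067, and the mean of profiles gave Dnmt3a -0.010. Without 1 array, Dnmt3b ranged from -0.11 to 0.14, Mt1 from -0.26 to 0.044 and Tet2 from -0.041 to 0.092 there. Tet2 ranged from -0.092 to 0.046 in Ind-8 against Con-3 and from -0.10 to 0.012 in Ind-8 against tI-3.

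Of 1767 pairs of an alternative and a called change of another named gene, 1557 kept the call, 210 lost it and 0 turned sign. Counts over the other gene lists moved by over 1.5 times in 168 of 1378 cases.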
